A study of Triticum aestivum with 3 samples.

Results

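The PPD1 photoperiod genes were followed here as a pair of homoeologs, TraesCS2D02G079600 on chromosome 2D and TraesCS2A02G081900 on chromosome 2A of bread wheat (Triticum aestivum). They were taken by their listed identifiers, by a rule that uses no measured value, and they are 2 of the 165276 genes and account for 12 of the 193258 transcripts in the tables. The samples were shoots of the cultivar Chinese Spring, a wild-type genotype with no treatment, in 3 biological replicates of a single condition. There is thus no control group. The copies were compared with each other inside a library, and their levels were also set against other libraries and other genes. Seeds were kept for 2 days at 4 °C in the dark and the seedlings were then grown in long days at 18 °C, and the labels give their age as both 12 and 14 days. Poly(A) RNA from 180 mg of shoots was sequenced in directional libraries, and the hour of harvest is not given in the sources used here. A PPD1 copy on chromosome 2B was not analysed here, and the number of plants behind each replicate is not given in the sources used here. Replicate 3 stood apart in scale, being the lowest library for 70.9% of the 91153 genes above 0 TPM in all 3, so the main values are also given without it.

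PPD1 encodes a pseudo-response regulator, a member of the family of plant clock proteins that carry a receiver-like domain near the start and a CCT domain near the end, and it is the wheat counterpart of barley Ppd-H1. In long days PPD1 promotes flowering by raising the expression of the florigen gene FT1 in leaves, and its own transcript follows a daily rhythm. Because bread wheat is hexaploid, a gene is commonly present as a homoeologous copy in each subgenome, and alleles of individual PPD1 copies are a major known source of differences in daylength response between wheat cultivars.

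Both copies were expressed in the shoots, with the 2D copy about 2.04-fold above the 2A copy. The 2D copy had 26.7, 30.4 and 17.1 TPM in replicates 1, 2 and 3, and the 2A copy had 13.5, 16.8 and 7.20 TPM in the same libraries. TPM, an abundance per 1000000 transcripts, is the estimated count per effective transcript length scaled to the same total in each library, and it was summed here over the isoforms of each gene. The lowest library of the 2D copy lay just above the highest library of the 2A copy, and within each copy replicate 2 was highest and replicate 3 lowest. The means were 24.8 ± 6.86 TPM for the 2D copy and 12.5 ± 4.87 TPM for the 2A copy (SD, n = 3), and without replicate 3 they were 28.6 and 15.2 TPM.

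These levels rest on deep coverage. The 2D copy had 5407, 5883 and 3208 estimated counts in replicates 1, 2 and 3, and the exact Poisson 95% intervals ran between 5264 and 5553, 5734 and 6035, and 3098 and 3321. The 2A copy had 1972, 2344 and 994 estimated counts, with intervals of 1886 to 2061, 2250 to 2441 and 933 to 1058. The intervals cover counting error only, and the spread between libraries was wider than they are. Because kallisto divides reads that fit several transcripts, reads common to both copies were split by its model, and the share of each copy is uncertain to an extent that the tables do not show. Whether reads from a copy on chromosome 2B were counted under either copy was not tested.

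**Figure D1:**
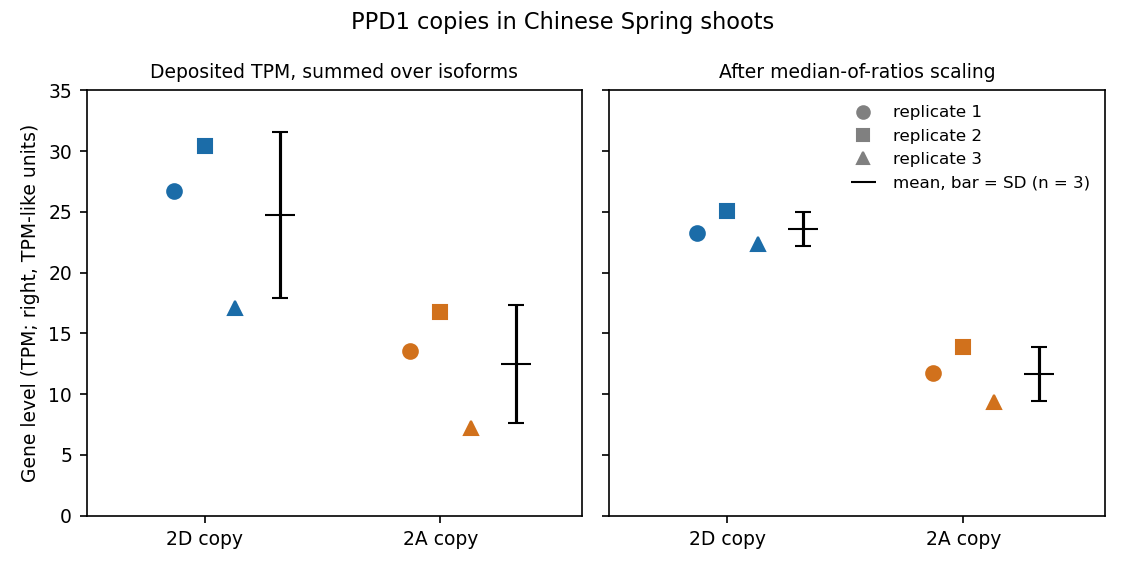
Level of the 2D copy (blue) and the 2A copy (orange) of PPD1 in each library, as deposited TPM on the left and after median-of-ratios scaling on the right, with black bars for mean and SD (n = 3). The 2D copy lies above the 2A copy in every library, and the 3 libraries of each copy lie closer together on the right, where the 2D copy spans 22.3 to 25.1.

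Both copies were called expressed by the rule of the study's methods, a median of the replicates above 0, which 61.3% of all genes also met. Since the rule admits most genes, the rank of the copies is more informative. By the median of the replicates, 97.7% of all genes had a lower TPM than the 2D copy and 95.0% a lower TPM than the 2A copy. Against high-confidence genes of their own chromosomes, the 2D copy was above 96.8% of 5865 genes on 2D and the 2A copy above 93.5% of 5797 genes on 2A. The median high-confidence gene had 0.154 TPM on 2D and 0.167 TPM on 2A, and among those expressed it had 1.29 and 1.28 TPM, so that the typical genes of the chromosomes were close in level.

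Within libraries, the 2D over 2A ratio of gene TPM was 1.98 in replicate 1, 1.81 in replicate 2 and 2.38 in replicate 3. The mean log2 ratio was 1.03 ± 0.20 (SD, n = 3), higher for the 2D copy in 3 of 3 libraries, and 0.92 without replicate 3. An exact two-sided sign-flip permutation test gave p = 0.25, which is the smallest value that this test can give with 3 libraries, so this test could not reach 0.05. Put as a share, the 2D copy supplied 66.4%, 64.5% and 70.4% of the TPM of the pair, or 67.1% ± 3.03 (SD, n = 3). Together the copies had 40.2, 47.2 and 24.3 TPM.

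The ratio was not the same in the libraries once only counting error is allowed for. Of the estimated counts of the pair, the 2D copy held 73.3% in replicate 1, 71.5% in replicate 2 and 76.3% in replicate 3, with exact (Clopper-Pearson) 95% intervals of 72.3 to 74.3, 70.5 to 72.5 and 75.03 to 77.6%. A chi-square test of the rounded counts, copies by libraries, gave p = 6.19e-08. The intervals of replicates 1 and 2 overlap slightly and that of replicate 3 stands clear of both, in the library in which both copies had their lowest TPM. The test takes no account of the division of shared reads or of differences between plants.

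The size of the difference turned on what was compared. With estimated counts, which are not divided by length, the mean log2 ratio was 1.49, since the 2D isoforms are longer than those of the 2A copy. With the longest isoform of each copy, the ratio was 1.08, 0.938 and 1.11 in replicates 1, 2 and 3. The longest isoforms thus differed by a mean log2 ratio of 0.05 ± 0.13 (SD, n = 3, exact sign-flip permutation p = 0.5), in both directions and within the spread between libraries. With the longest isoform of each copy left out, a split made after the values were seen, the remaining isoforms had 16.4, 18.9 and 11.4 TPM in the 2D copy, against 3.94, 4.51 and 2.00 TPM in the 2A copy. The mean log2 ratio of these remaining isoforms was 2.21 ± 0.26 (SD, n = 3). These values are a description with no test, and whether the longest models are counterparts is not annotated in the tables.

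**Figure D2:**
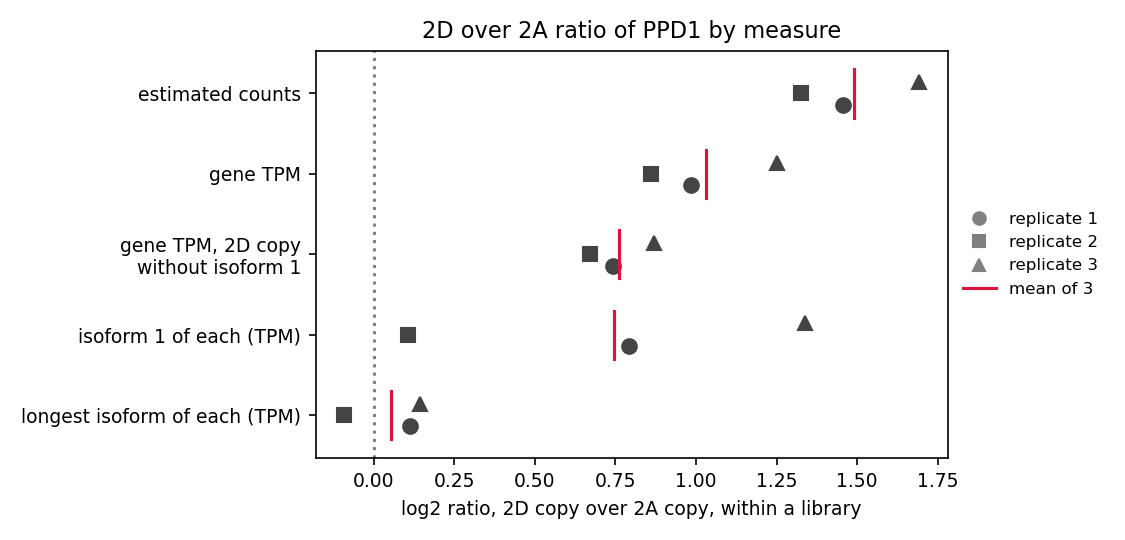
Log2 ratio of the 2D copy over the 2A copy within each library (symbols by replicate) for 5 measures, with the mean of the 3 libraries in red and the dotted line at equal levels. The ratio lies above 0 in every library for counts and for gene TPM, and crosses 0 for the longest isoforms, where replicate 2 is at -0.09.

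The annotated models of the copies are not alike in length, which bears on any ratio per length. The 7 isoforms of the 2D copy are 2387 to 2950 bases long and the 5 isoforms of the 2A copy 1242 to 2037 bases. All 5 lengths of the 2A copy are multiples of 3, as coding sequences without untranslated regions would be, against 4 of 7 in the 2D copy. Such models are common in this annotation, with 51.7% of 105200 high-confidence genes having every transcript a multiple of 3. The 2D isoforms whose lengths are not multiples of 3 are isoforms 1, 2 and 7, with mean shares of 16.9, 24.3 and 36.7% of the TPM of that copy. Whether the difference between the models moved reads between the copies was not tested. The copies do share small steps in length between isoforms, with differences of 6, 36 and 42 bases found in both. In the 2D copy they separate isoforms 3, 4, 5 and 6, and in the 2A copy isoforms 1, 2 and 3.

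The isoforms of the 2D copy were used more evenly than in most genes with as many. The 2A copy was carried mainly by a single isoform, as is common among genes with as many. Both have many isoforms for this annotation, since 99.8% of high-confidence genes have fewer than 7 and 99.2% fewer than 5. The leading isoform held 37.2% of the mean TPM of the 2D copy, below the median of 56.5% in 82 high-confidence genes with 7 isoforms and a mean of at least 1 TPM. It held 72.1% in the 2A copy, above the median of 65.7% in 350 such genes with 5 isoforms. As an effective number of isoforms, the inverse of the summed squared shares, this came to 3.83 for the 2D copy and 1.77 for the 2A copy. A leading share lower than that of the 2D copy was found in 13.4% of the 82 genes, and one lower than that of the 2A copy in 58.6% of the 350 genes.

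In the 2D copy, the highest level was that of isoform 7, the longest model at 2950 bases, with 10.4, 11.5 and 5.75 TPM in replicates 1, 2 and 3. Isoform 2, of 2462 bases, followed with 6.13, 8.21 and 3.94 TPM. Isoform 4, of 2874 bases, had 5.41, 5.22 and 3.46 TPM. These 3 isoforms were each lowest in replicate 3, like the gene as a whole. Their shares of the 2D copy were 36.7% ± 2.75, 24.3% ± 2.32 and 19.2% ± 1.77 (SD, n = 3), by TPM, and isoforms 2 and 4 were less than 3 percentage points apart in replicates 1 and 3. By estimated counts their order turned in those libraries, with 20.5% for isoform 2 and 21.3% for isoform 4 in replicate 1, and 20.9 and 21.7% in replicate 3.

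Isoform 1 of the 2D copy, the shortest of its models at 2387 bases, did not follow the gene. It had 4.10, 3.70 and 3.98 TPM in replicates 1, 2 and 3, or 3.93 ± 0.20 TPM (SD, n = 3), while the other isoforms above 1 TPM on average were lower in replicate 3 by a factor of 0.526 to 0.652 against the mean of replicates 1 and 2. Its share of the estimated counts of the 2D copy was 13.3% in replicate 1, 10.5% in replicate 2 and 20.4% in replicate 3, with exact binomial 95% intervals of 12.4 to 14.2, 9.77 to 11.4 and 19.0 to 21.8%. These intervals do not overlap, and they cover counting error only. Isoforms 1 and 2, the 2D models under 2500 bases, together held 38.3, 39.2 and 46.2% of the TPM of that copy in replicates 1, 2 and 3. How far the level of isoform 1 rests on the division of reads shared with other isoforms was not tested. With isoform 1 left out of the 2D copy, an alternative chosen after seeing the data, the 2D over 2A ratio was 1.67, 1.59 and 1.83. These ratios are closer together than with it, which follows from leaving out an isoform that did not fall with the gene in replicate 3.

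The remaining isoforms of the 2D copy were low or unsteady. Isoform 5, of 2826 bases, had 0.735 TPM in replicate 1 and 1.79 TPM in replicate 2, from 154 and 358 estimated counts, and a value of nearly 0 in replicate 3. Isoform 3 had at most 0.00473 TPM, from 1.01 estimated counts, and isoform 6 at most 0.000354 TPM. These models differ from isoform 4 by 6 to 48 bases, and how much of the spread between them comes from the division of shared reads was not tested. Over the 5 isoforms of the 2D copy with at least 30 counts in all, the shares of the counts differed between libraries by more than counting error (chi-square test, p = 6.76e-88), with a small effect size (Cramer's V 0.122).

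In the 2A copy, isoform 2, the longest at 2037 bases, had 9.58, 12.3 and 5.21 TPM in replicates 1, 2 and 3. Isoform 1, of 1995 bases, had 2.37, 3.44 and 1.57 TPM, and isoform 3, of 2001 bases, had 1.41, 0.969 and 0.425 TPM. Their shares were 72.1% ± 1.12, 20.0% ± 2.22 and 7.38% ± 2.66 (SD, n = 3), in the same order in each library and far enough apart that their ranges did not overlap. Isoform 3 took 10.5% in replicate 1 and 5.77 and 5.90% in replicates 2 and 3. The shares of the counts of the 3 isoforms again differed between libraries by more than counting error (chi-square test, p = 9.50e-09), with a Cramer's V of 0.0639.

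The short models of the 2A copy were close to absent. Isoform 5, of 1242 bases, had 0.157, 0.101 and 0 TPM, from 13.3, 8.14 and 0 estimated counts. Isoform 4, of 1260 bases, had 0 estimated counts in every library, which, at 3 counts of the total, allows up to 0.152, 0.128 and 0.302% of the estimated counts of the 2A copy in replicates 1, 2 and 3 (counting error only). The models over 1900 bases therefore made up 99.4% ± 0.581 of the TPM of the 2A copy (SD, n = 3).

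**Figure D3:**
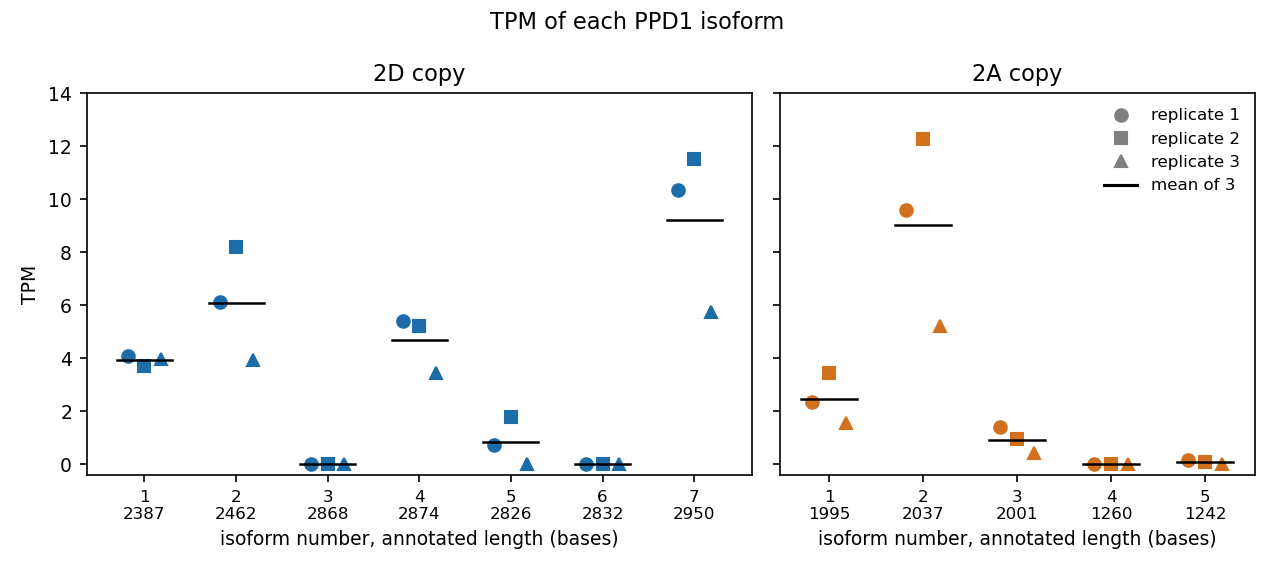
TPM of each annotated isoform of the 2D copy (left) and the 2A copy (right), with isoform number and length in bases on the horizontal axis, symbols for the replicates and a black line at their mean. Isoform 1 of the 2D copy stays near 3.93 TPM in every library, and isoform 2 of the 2A copy stands far above the others of its gene.

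The libraries themselves differed, and part of the spread of PPD1 was common to most genes. The libraries held 75465873, 76337649 and 67470696 estimated counts in replicates 1, 2 and 3, and the 10 most abundant transcripts took 19.6, 19.2 and 26.5% of all TPM. Over the 91153 genes above 0 TPM in every library, the log2 TPM of the median gene deviated from its own mean by 0.17 in replicate 1, 0.26 in replicate 2 and -0.42 in replicate 3. The 2D copy deviated by 0.15, 0.34 and -0.49 and the 2A copy by 0.20, 0.51 and -0.71. The 2D copy thus lay within 0.08 of the median gene in each library, and the 2A copy lay 0.25 above it in replicate 2 and 0.29 below it in replicate 3.

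Scaled by median-of-ratios size factors, which set the typical gene equal between libraries, the 2D copy had 23.3, 25.1 and 22.3 TPM-like units and the 2A copy 11.8, 13.8 and 9.39. The highest library was then 1.12-fold above the lowest for the 2D copy, against 1.78-fold in TPM, and 1.47-fold for the 2A copy, against 2.33-fold in TPM. On this scale isoform 1 of the 2D copy had 3.57, 3.06 and 5.19 units and was highest in replicate 3. The lower level of PPD1 in replicate 3 is therefore mostly lost on this scale for the 2D copy and partly kept for the 2A copy.

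Set beside genes of like level, the replicate spread of the 2D copy was ordinary and that of the 2A copy wide. The SD of log2 TPM was 0.43 for the 2D copy, larger than in 62.2% of 6874 genes with a mean TPM within 2-fold of it, whose median was 0.37. It was 0.63 for the 2A copy, larger than in 84.9% of 13241 such genes, whose median was 0.40. After median-of-ratios scaling, the SD of log2 level was 0.09 for the 2D copy, larger than in 16.0% of its like genes, and 0.28 for the 2A copy, larger than in 68.5%. Replicate 3 was the lowest library in 82.2% of the genes like the 2D copy and in 85.4% of those like the 2A copy.

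**Figure D4:**
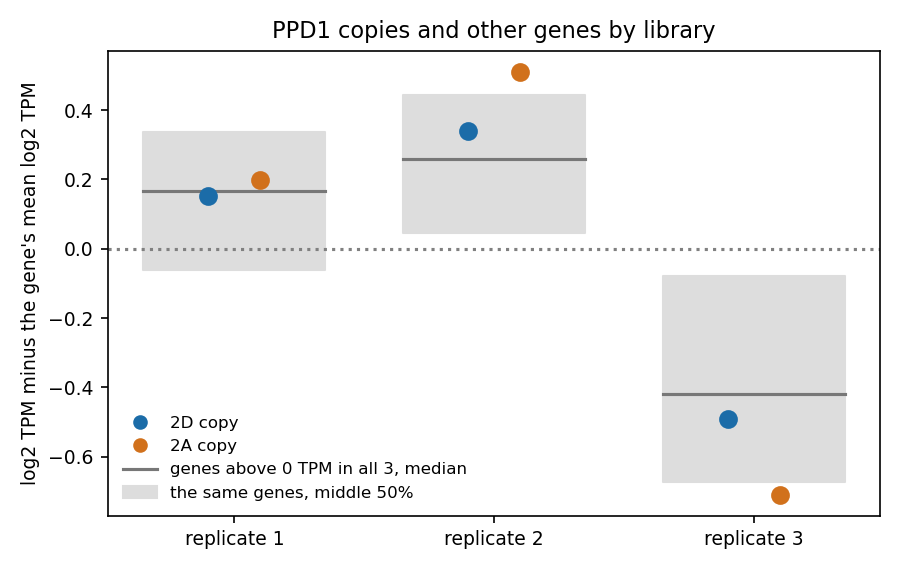
Deviation of log2 TPM from the gene's own mean in each library for the 2D copy (blue) and the 2A copy (orange), over the median (grey line) and middle 50% (grey band) of the 91153 genes above 0 TPM in all 3 libraries. The 2D copy stays inside the band in every library, and the 2A copy lies above it in replicate 2 and below it in replicate 3, at -0.71.

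Taking the 5 high-confidence genes with the next lower and the 5 with the next higher identifiers on the same chromosome, 6 of 10 on 2D and 7 of 10 on 2A had a median TPM above 0, beside 66.0% of all high-confidence genes on 2D and 65.6% on 2A. The median neighbour had 0.118 TPM on 2D and 0.329 TPM on 2A, beside medians of 0.154 and 0.167 TPM for these chromosomes, and 4 neighbours on 2D and 2 on 2A were at 0 in all 3 libraries. PPD1 was second in level in each window.

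The only neighbour above PPD1 was, on both chromosomes, the second gene after it in identifier order. TraesCS2D02G080000 had 181, 209 and 141 TPM in replicates 1, 2 and 3, and TraesCS2A02G082100 had 164, 171 and 113 TPM, a 2D over 2A ratio of 1.11, 1.22 and 1.25, nearer to 1 in each library than that of the PPD1 copies. The next gene after PPD1 differed more, with TraesCS2D02G079800 at 0 in all 3 libraries and TraesCS2A02G082000 at 3.87, 3.29 and 3.18 TPM. Whether genes at the same position in the 2 windows are homoeologs is not annotated in the tables, and none of these genes is named in them.

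**Figure D5:**
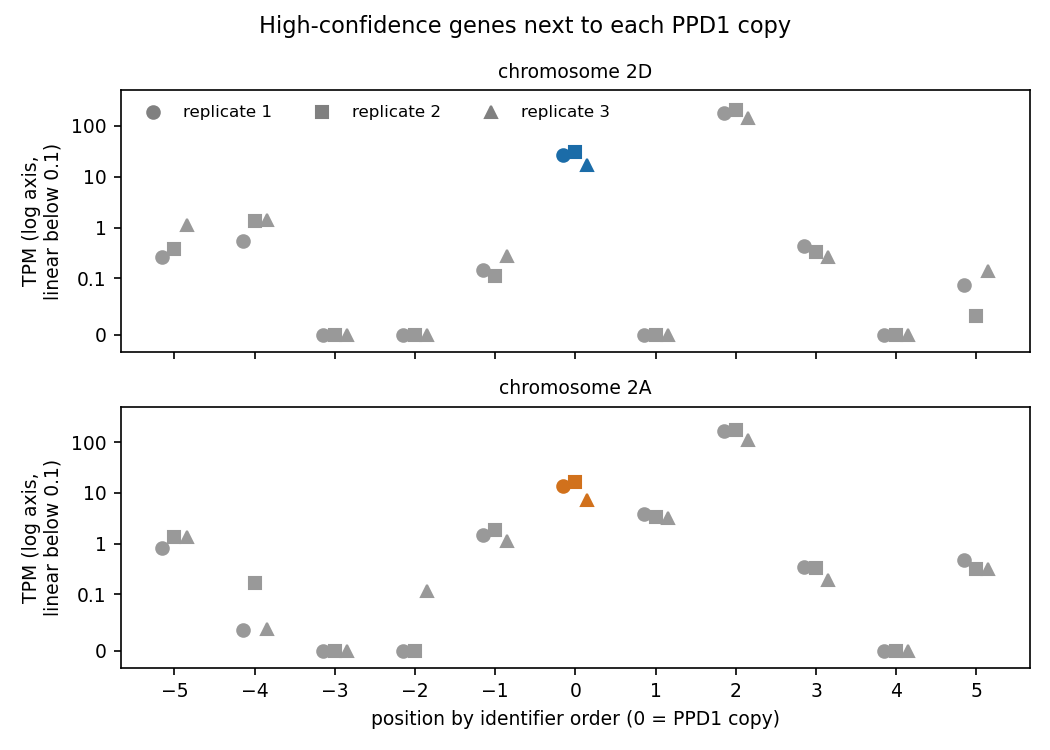
TPM of the high-confidence genes on either side of PPD1 by identifier order on chromosome 2D (top) and 2A (bottom), on a log axis that is linear below 0.1 TPM, with symbols for the replicates and PPD1 in colour at position 0. On both chromosomes the gene at position 2 is the only neighbour above PPD1, at medians of 181 TPM on 2D and 164 TPM on 2A.

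The genes most like PPD1 in level over the 3 libraries were found by the root mean square difference of log2 TPM, among 65207 other high-confidence genes above 0 TPM in every library. For the 2D copy they were TraesCS5B02G111700, TraesCS1D02G266500 and TraesCS1B02G142400, each within 0.0247. The first of them had 26.7, 31.2 and 17.3 TPM in replicates 1, 2 and 3. For the 2A copy they were TraesCS5D02G092600, TraesCS5B02G133400 and TraesCS2A02G286100, each within 0.0443, and the first had 13.7, 16.9 and 7.41 TPM. With 3 libraries such likeness is easily met, since 677 genes lay within 0.25 of the 2D copy and 768 within 0.25 of the 2A copy. The centred patterns of the copies themselves differed by 0.163, and 17.9% of the other high-confidence genes had a pattern closer to that of the 2A copy than the 2D copy had, and 30.6% one closer to that of the 2D copy than the 2A copy had.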

How the data were processed

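According to the methods and processing notes, the authors trimmed reads with Trimmomatic 0.36 and quantified transcripts with kallisto (version and settings not given in the sources used here) on high-confidence and selected low-confidence gene models of IWGSC RefSeq v1.1, leaving out unanchored scaffolds. The authors deposited per transcript an estimated count, not scaled for depth and possibly fractional, and TPM, which sums to 1000000 per library. Replicates were not pooled.

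Here TPM and counts were summed over isoforms, with no pseudocount or filter, and counts were rounded for intervals and chi-square tests. Library totals were 75465873, 76337649 and 67470696 counts. Deviations, spreads and likeness used genes above 0 TPM in every library.

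Named were the PPD1 copies, their isoforms, the highest of 5 neighbours on each side and the 3 most alike genes per copy. TraesCS2D02G079800, TraesCS2A02G082000 and the splits that leave out the longest isoforms or go by length were chosen after their values were seen. Members and lists were chosen with earlier results of these data known. The RefSeq gene table matched 0 identifiers, so other photoperiod genes, shoot markers, sequences and positions were not used here. Simulated libraries were used to test the recovery of folds with size factors, the search for like genes and the 2D over 2A ratio. In these libraries the count of each transcript was drawn independently, so the division of shared reads, isoform shares and chi-square tests were not covered. Alternatives covered isoforms, length, pseudocounts (0.1 and 1 TPM), scaling, gene sets, thresholds (0.1, 0.5 and 1 TPM, or 3 counts) and leaving out each replicate. Software was Python 3.11.15 with scipy 1.17.1, numpy 2.4.6, matplotlib 3.10.9 and pandas 2.3.3.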

Additional observations from a re-analysis of the deposited data

How the results depend on the processing

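The mean 2D over 2A log2 ratio was 0.05 ± 0.13 (SD, n = 3) with the longest isoform of each copy, where replicate 2 was at -0.09. In the other alternatives it lay between 0.74 with the first-numbered isoforms and 1.49 with estimated counts, and it was 0.92 to 1.12 when each replicate was left out. Without isoform 1 of the 2D copy, an alternative added after seeing the data, it was 0.76. With the longest isoform of each copy left out, a split also made after the values were seen, it was 2.21 ± 0.26 (SD, n = 3). The level moved with the first-numbered isoform alone, to 3.93 TPM for the 2D copy and 2.46 TPM for the 2A copy, and with the longest isoform alone, to 9.21 TPM for the 2D copy. The share of isoforms 2 and 7 of the 2D copy was 21.9 and 40.0% by estimated counts. The rank of the 2D copy was 96.9% among high-confidence genes, 96.2% among expressed genes and 96.8% on its chromosome, and that of the 2A copy 93.3, 91.8 and 93.5%. The share of genes with a smaller spread was 16.0% for the 2D copy and 68.5% for the 2A copy after median-of-ratios scaling, and 39.0 and 64.8% against all genes above 0. Apart from the longest-isoform ratio, the remaining alternative values kept their direction or moved by less than the spread between replicates, and both copies stayed expressed at every threshold. The samples form a single group, so they could not be paired between groups. Each ratio is within a library, so the sign-flip test of the ratios pairs the copies by library. With 3 libraries the sign-flip permutation test cannot give a p below 0.25.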
